A study of Mus musculus with 6 samples.

Results

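The SoxB genes Sox1, Sox2, Sox14 and Sox21 were followed through the peak lists of 2 histone marks. These are H3K9cr, a crotonyl group on lysine 9 of H3, and H3K9ac, an acetyl group on the same residue. The 4 genes were taken by name from 21883 protein-coding gene records on the nuclear chromosomes. Peaks were collected within 20 kb of each gene record and, for Sox2, within 150 kb, which gave 20 to 22 peaks per library out of 26096 to 28360. All libraries came from P19, a mouse embryonal carcinoma line grown in proliferation medium with fetal bovine serum, with no treatment named in the labels. The H3K9cr group was precipitated with an antibody to H3K9cr and the H3K9ac group with one to H3K9ac, from chromatin that was not crosslinked, and each group had 2 biological replicates. The question was where both marks lie at these genes in undifferentiated cells. The 2 input libraries were not analysed here, and a mark cannot be told apart from its single antibody.

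The number of reads per library is unknown, and intervals that would rest on it are left out. The list of H3K9ac replicate 1 was the shortest, with 26096 peaks covering 36.4 Mb, against 27474 to 28360 peaks and 40.0 to 42.1 Mb in the other libraries. Both H3K9cr lists covered more of the genome than both H3K9ac lists. Only peaks past the authors' threshold are listed, so a missing peak does not measure absence. Markers of embryonal carcinoma cells (Pou5f1, Lin28a, Utf1, Dppa4 and Tdgf1) had a peak within 2.5 kb in all 4 libraries, 5 of 5 genes. The same held at 67.9% of all protein-coding genes. Of 8 markers of liver, blood, heart muscle and epidermis, 6 had no peak within 2.5 kb in any library, Apoa1 had one in all 4 and Myh6 in 1. Of all 21883 protein-coding genes, 6463 had no such peak in any library.

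SoxB genes encode transcription factors that bind DNA through an HMG box and have a single coding exon. The SoxB1 factors Sox1, Sox2 and Sox3 act mainly as activators and keep neural progenitors undifferentiated, and Sox2 also works with Oct4 to maintain pluripotent cells. The SoxB2 factors Sox14 and Sox21 act mainly as repressors and are used as neural progenitors turn into neurons. Acylation of lysine 9 of histone H3 is typical of active promoters and enhancers. Sox2 is known to be driven in pluripotent cells by enhancers close to the gene on both sides and by a distant control region on its downstream side. P19 cells can be turned into neurons with retinoic acid, but the cells studied here were undifferentiated.

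The start-site sequences of the 4 genes are shown because the marks covered them to different extents. Each run starts 250 bases before the RefSeq transcription start and ends 30 bases after it, and is written 5′ to 3′ on the strand of the gene. Capitals mark matches, on either strand, to the first 7 letters of the octamer bound by Oct4 (ATGCAAA), to a Sox-type core (ACAATG or ACAAAG) and to the CCAAT box (CCAAT).
Sox2 (chr3:34649745-34650024, GRCm38.p6, plus strand): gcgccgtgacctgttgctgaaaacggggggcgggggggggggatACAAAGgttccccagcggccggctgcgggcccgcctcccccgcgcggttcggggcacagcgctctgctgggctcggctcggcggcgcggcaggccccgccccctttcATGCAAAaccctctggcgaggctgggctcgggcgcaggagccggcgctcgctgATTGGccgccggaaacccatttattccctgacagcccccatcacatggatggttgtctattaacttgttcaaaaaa
Sox1 (chr8:12395269-12395548, GRCm38.p6, plus strand): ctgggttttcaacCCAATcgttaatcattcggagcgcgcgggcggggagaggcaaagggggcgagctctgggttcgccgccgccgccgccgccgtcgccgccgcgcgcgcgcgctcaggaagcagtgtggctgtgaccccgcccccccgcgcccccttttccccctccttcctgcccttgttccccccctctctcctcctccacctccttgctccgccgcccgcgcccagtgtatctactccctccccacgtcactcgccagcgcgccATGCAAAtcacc
Sox14 (chr9:99876141-99876420, GRCm38.p6, minus strand): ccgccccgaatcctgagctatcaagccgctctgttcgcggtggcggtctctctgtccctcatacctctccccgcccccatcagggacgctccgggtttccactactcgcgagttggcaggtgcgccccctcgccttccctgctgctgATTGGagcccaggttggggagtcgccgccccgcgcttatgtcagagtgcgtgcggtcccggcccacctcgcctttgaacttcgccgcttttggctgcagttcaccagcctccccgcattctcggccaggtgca
Sox21 (chr14:118237001-118237280, GRCm38.p6, minus strand): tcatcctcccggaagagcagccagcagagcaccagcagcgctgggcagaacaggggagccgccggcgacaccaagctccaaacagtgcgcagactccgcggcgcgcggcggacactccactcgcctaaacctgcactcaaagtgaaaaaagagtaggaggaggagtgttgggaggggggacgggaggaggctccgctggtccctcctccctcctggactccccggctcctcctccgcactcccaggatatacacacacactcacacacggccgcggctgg
A match is a description of letters, not a site of binding.

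In Sox2 the octamer letters started at base 152, the Sox-type core ACAAAG at base 45 and the CCAAT box, in reverse, at base 205, counted from the first base printed. Sox1 had the octamer letters at base 269 and a CCAAT box at base 14, Sox14 had only a reversed CCAAT box at base 148, and Sox21 had none of these motifs. Among 32851 RefSeq start-site windows of 300 bases, 4.63% held ATGCAAA, 12.6% ACAATG, 18.7% ACAAAG and 37.4% CCAAT on either strand. All members were rich in CpG, with 37 CpG in the 300-base window of Sox1, 27 in Sox2, 26 in Sox14 and 22 in Sox21, against a median of 7 over all windows. The windows of Sox1, Sox2 and Sox21 were covered whole (100%) by peaks in all 4 libraries. The window of Sox14 was covered whole only in H3K9cr replicate 1, to 11.3% in H3K9cr replicate 2, to 4.67% in H3K9ac replicate 2 and not at all (0%) in H3K9ac replicate 1. Of all such windows, 36.7% to 39.8% were covered whole and 6.68% to 8.43% in part in a library.

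Sox2 had by far the longest and tallest peaks of the group. Sox1 had long peaks of middling height among all peaks, and Sox14 and Sox21 had low peaks. Height is given as the percentile of the peak's summit pileup, the coverage at its highest point, within its own list. The tallest peak within 20 kb stood at the 86.1st and 85.7th percentile of the H3K9cr lists and the 81.7th and 83.0th of the H3K9ac lists for Sox2. For Sox1 it stood at 58.7 and 54.9 for H3K9cr and 50.5 and 55.7 for H3K9ac. The Sox14 percentiles were 22.5 and 35.2 for H3K9cr and 22.0 and 28.5 for H3K9ac. For Sox21 they were 18.3 and 11.5 for H3K9cr and 16.9 and 21.8 for H3K9ac. All 4 libraries gave the same order of the genes, and the ranges did not overlap, but the lowest value of Sox14 (22.0) and the highest of Sox21 (21.8) nearly met, and these neighbours are not separated beyond their spread. A peak within 20 kb in all libraries, present at all 4 members, was found at 74.3% of protein-coding genes. Of genes with a peak within 20 kb, 40.8% to 47.6% had a taller tallest peak than Sox2, and 80.9% to 85.3% than Sox1. For Sox14 this share was 94.2% to 97.1%, and for Sox21 97.0% to 98.7%. Among genes, the tallest peak in the window of Sox1 was thus low and that of Sox2 a little above the middle. A longer gene has a longer window, and a window can hold peaks of neighbouring genes. These shares therefore do not compare the genes' own peaks alone.

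**Figure D1:**
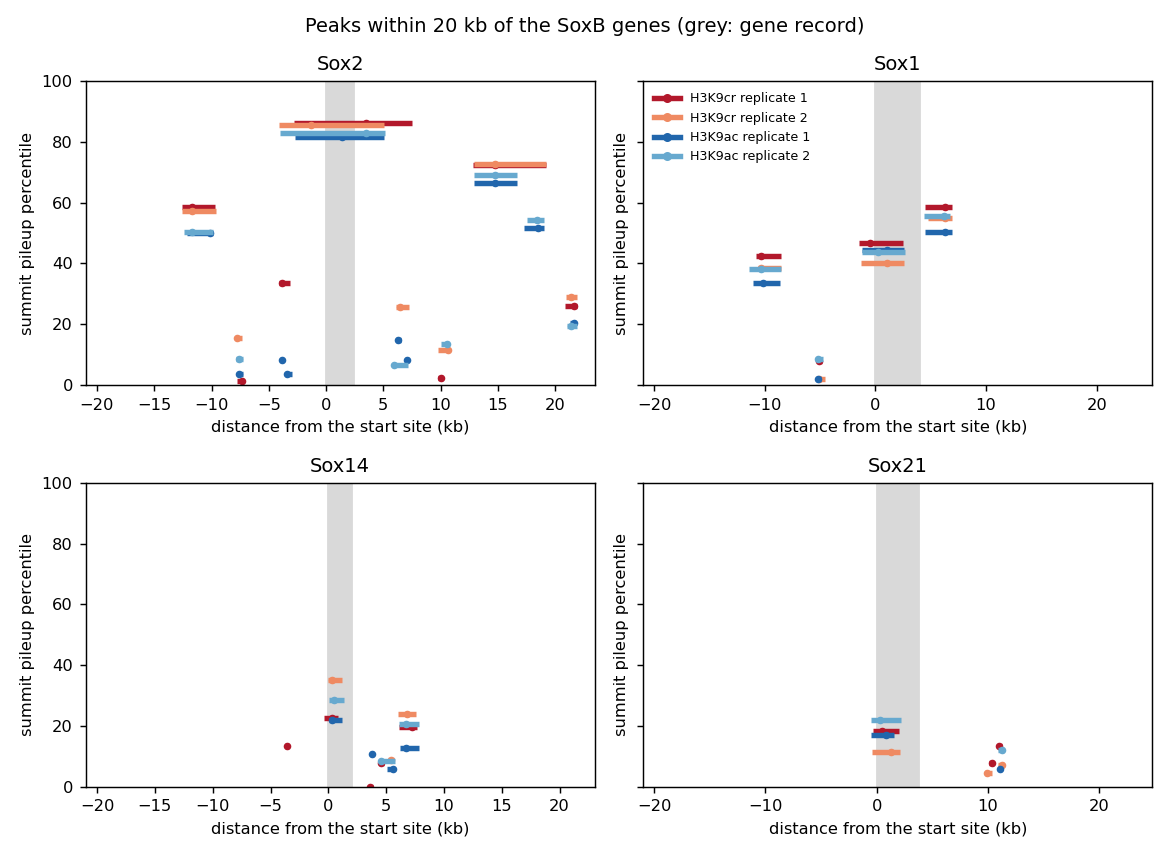
Peaks within 20 kb of each gene in the 4 libraries, drawn as bars from start to end with a dot at the summit. The horizontal axis is the distance from the start site in kb along the gene's strand, the vertical axis is the pileup percentile in the library's own list, and grey marks the gene record. The Sox2 peaks over the gene lie between the 81.7th and 86.1st percentile, and those over Sox21 between the 11.5th and 21.8th.

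The length of DNA under peaks gave the same first places. Within 20 kb of Sox2 (chr3:34649995-34652461, plus strand), peaks covered 22649 and 22068 bp in the H3K9cr libraries and 18091 and 20414 bp in the H3K9ac libraries. Only 17, 18, 42 and 25 of the 21883 genes had more covered length, in the same order of libraries, although the window of a longer gene is longer and Sox2 spans only 2467 bp. Around Sox1 (chr8:12395519-12399555, plus strand) H3K9cr peaks covered 9137 and 8878 bp and H3K9ac peaks 8973 and 9708 bp, at the 92.5th to 95.2nd percentile of genes. Around Sox14 (chr9:99874106-99876170, minus strand) H3K9cr covered 3738 and 3222 bp and H3K9ac 3716 and 4271 bp. Around Sox21 (chr14:118233233-118237030, minus strand) H3K9cr covered 3101 and 3698 bp and H3K9ac 2370 and 3138 bp, and Sox14 and Sox21 overlapped. No other protein-coding gene lay within 20 kb of any member.

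The Sox2 gene lay inside a block of both marks. The whole gene record (100%) was under a peak in all 4 libraries. The tallest peak over the gene was 10278 and 9156 bp long in the H3K9cr libraries and 7738 and 9170 bp in the H3K9ac libraries. By length this peak ranked 10th and 19th among H3K9cr peaks and 22nd and 12th among H3K9ac peaks, so it was among the longest of every list. By summit pileup it ranked only 3938th and 4042nd, and 4744th and 4662nd.

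Joined over the libraries, the peaks at the gene formed a site of 11569 bp (chr3:34645904-34657472) that also lies within the long noncoding gene Sox2ot. H3K9cr replicate 1 broke it into 2 peaks with a gap of 338 bp on the upstream side, H3K9cr replicate 2 and H3K9ac replicate 2 into 2 peaks with gaps of 1062 and 749 bp on the downstream side, and H3K9ac replicate 1 into 5 peaks. The covered length of the site was 11209 and 10278 bp under H3K9cr peaks, and 9397 and 10426 bp under H3K9ac peaks. The libraries of the marks overlapped (exact two-sided permutation p = 0.667, n = 2 each). The summit moved within the block, and lay 3456 bp after the start site in H3K9cr replicate 1, at -1333 bp, before the start site, in H3K9cr replicate 2, and 1409 and 3452 bp after it in the H3K9ac libraries. The position of the summit thus differed as much between replicates as between marks.

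Beyond the gene, 9 distal sites, at least 2.5 kb from the gene record, lay within 150 kb of Sox2, of which 6 had a peak in all 4 libraries. Genome-wide, 22972 of 31127 sites had a peak in all 4 libraries. The distal Sox2 sites were placed unevenly, 2 upstream and 7 downstream. The farthest upstream peak began 12.6 kb before the start site, and from there to 150 kb no library listed a peak. Downstream, 4 sites lay more than 20 kb from the gene and the farthest ended 146.2 kb from the start site. Between 88.5% and 90.9% of the covered length in the 150 kb window lay within 20 kb. Among genes, the covered length of Sox2 in the 150 kb window stood only at the 82.4th to 85.7th percentile. The near-top place of Sox2 in covered length thus held for the 20 kb window and not for the wider one. Such wide windows can hold peaks of neighbouring genes.

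**Figure D2:**
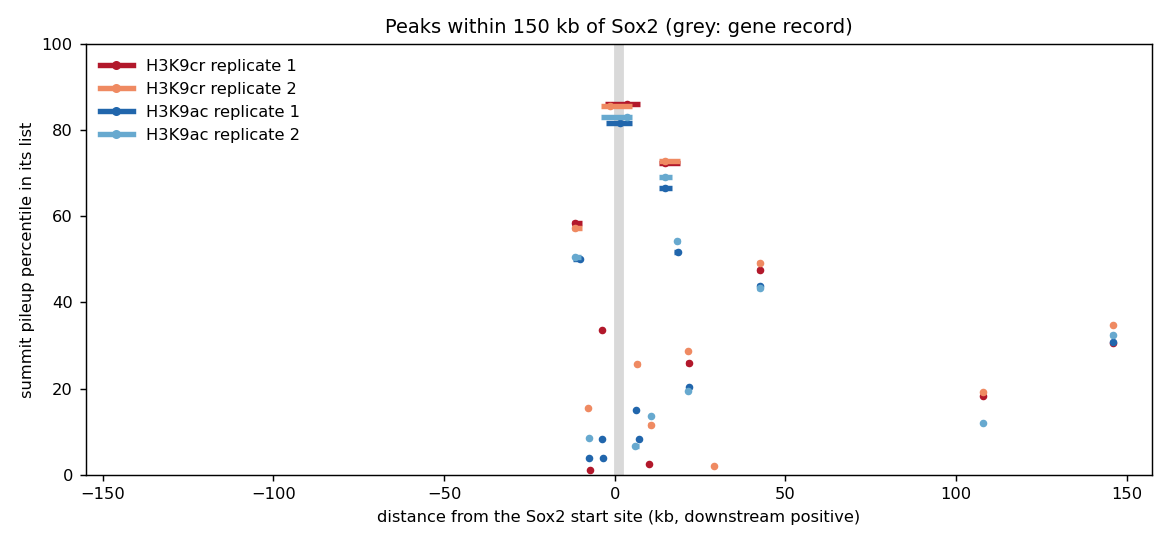
Peaks within 150 kb of Sox2, with the distance from the start site in kb on the horizontal axis (downstream positive) and the pileup percentile in each library's own list on the vertical axis. Bars span the peaks, dots mark summits, and grey marks the gene. The tallest distal site is centred 16.0 kb downstream, and single peaks recur near 42, 108 and 146 kb.

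The largest distal site was a downstream block of 6401 bp (chr3:34662830-34669230), within Sox2ot and 10.4 kb from the gene record. It was covered over 6317 and 6299 bp in the H3K9cr libraries and 5497 and 5279 bp in the H3K9ac libraries. Both H3K9cr libraries listed it as 1 unbroken peak and both H3K9ac libraries as 2 peaks with gaps of 583 and 867 bp. The marks did not overlap in covered length here, 6308 ± 12.7 bp against 5388 ± 154 bp (SD, n = 2 each). The same held, with H3K9cr higher, at 34.5% of the 22972 sites genome-wide that had a peak in all 4 libraries. By exact permutation, two-sided, p was 0.3333, which is the lowest value possible with 2 libraries against 2. Its summit was placed within 40 bp in all libraries, 14739 to 14779 bp from the start site, and its percentile was 72.4 and 72.8 for H3K9cr and 66.6 and 69.2 for H3K9ac.

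The tallest upstream site (chr3:34637403-34640363) was centred at -11.1 kb from the start site, within Sox2ot, and overlapped the microRNA gene Mir1897. Its percentile was 58.5 and 57.3 for H3K9cr and 50.01 and 50.5 for H3K9ac, and its covered length was 2917, 2961, 2293 and 2521 bp. Both measures were higher in both H3K9cr libraries than in both H3K9ac libraries, as at 15.8% of the 22972 sites with a peak in all libraries. For the percentile alone the share was 38.9%. A small site 7.13 kb upstream of the gene record (chr3:34642098-34642869) was listed in all libraries at percentiles from 1.18 to 15.6. On the other side, a site 18.4 kb from the record (chr3:34670825-34671925) was listed in all libraries at percentiles from 19.4 to 28.8.

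Farther downstream the peaks were short but fell on the same positions. The site near 42 kb (chr3:34691707-34692789), within the noncoding gene Gm34941, had lengths of 987, 988, 1044 and 995 bp and summits within 28 bp of each other. Its pileup percentile was 47.6 and 49.2 for H3K9cr and 43.9 and 43.4 for H3K9ac. The authors' fold enrichment at this site was 21.3 and 17.4 in the libraries numbered 1 and 8.15 and 8.51 in those numbered 2, so that it followed the replicate number and not the mark. The site near 146 kb (chr3:34795157-34796195) lay in no gene record, and its percentile was 30.6 and 34.7 for H3K9cr and 30.8 and 32.5 for H3K9ac. Fold enrichment also split by replicate number here, but in reverse. It was 6.40 and 7.80 in libraries numbered 1, and 12.2 and 12.8 in those numbered 2. The sites 18.4 kb downstream and 7.13 kb upstream of the Sox2 record split as near 42 kb. The largest distal site and the tallest upstream site did not.

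A site near 108 kb (chr3:34757320-34758090), also outside gene records, was listed in 3 of 4 libraries. Its length was 742 and 444 bp in the H3K9cr libraries and 644 bp in H3K9ac replicate 2, its percentile 18.3, 19.1 and 12.0, and its 3 summits fell within 17 bp of each other. It was not listed in H3K9ac replicate 1, the shortest list. The other sites without all libraries were one 7.30 kb downstream of the gene, missing from the same library, and one of 292 bp listed only in H3K9cr replicate 2. None of the 9 distal sites overlapped a RefSeq start-site window of another gene. Coordinates of the published Sox2 enhancers were not used here, so no site is assigned to one.

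Sox1 carried 4 sites within 20 kb, each with a peak of both marks in all 4 libraries. The peak over the gene measured 4014 and 3879 bp in the H3K9cr libraries and 3788 and 3887 bp in the H3K9ac libraries, at the 96.8th to 97.4th percentile of length. Its height was only at the 46.9th and 40.2nd percentile for H3K9cr and the 44.5th and 43.8th for H3K9ac. It covered the start site and 62.4% to 66.1% of the gene record.

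The tallest Sox1 peak was not over the gene. It lay just beyond the gene's 3′ end, 386 bp from the record (chr8:12399941-12402481), with summits within 56 bp of each other, 6233 to 6289 bp from the start site. This peak measured 2395 and 2232 bp in the H3K9cr libraries and 2444 and 2359 bp in the H3K9ac libraries, and was taller than the peak over the gene in all 4 libraries. An upstream site 8.48 kb from the record (chr8:12384124-12387035) stood at the 42.3rd and 38.5th percentile for H3K9cr and the 33.7th and 38.3rd for H3K9ac. It overlapped a RefSeq start-site window of the long noncoding gene Sox1ot, whose record spans all 4 sites. A weak site between them (chr8:12390248-12390988) did not exceed the 8.50th percentile.

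Sox14 carried a modest peak inside the gene. The tallest peak over the gene was 1175 bp long in both H3K9cr libraries and 1117 and 1293 bp in the H3K9ac libraries, close to the median length of the lists (1185 to 1246 bp). Its authors' fold enrichment was 6.45 and 6.28 for H3K9cr and 6.34 and 8.10 for H3K9ac. The summit lay 293 bp after the start site in both H3K9cr libraries and 288 and 470 bp after it in the H3K9ac libraries. In H3K9cr replicate 1 the peak began at -373 bp, before the start site, whereas in the other 3 libraries it began 16 to 57 bp after it. The small cover of the Sox14 start-site window in those libraries follows from this edge.

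Downstream of Sox14 a site 4.005 kb from the record (chr9:99868338-99870101) was listed in all libraries, 1553, 1510, 1572 and 1689 bp long, longer than the peak over the gene in each of them. Its percentile ran from 12.9 to 24.0. A site nearer the gene was listed in all libraries at percentiles of at most 8.70, and of the remaining 2 sites one was listed in 2 libraries, one of each mark, and one in H3K9cr replicate 1 alone. Within 20 kb, 38.5% of the base pairs under any peak at Sox14 were under a peak in all 4 libraries. The share was 77.7% at Sox1, 73.1% at Sox2 and 57.4% at Sox21.

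At Sox21 the marks formed a long, low peak over the start site. It measured 2384 and 2488 bp in the H3K9cr libraries and 2064 and 2653 bp in the H3K9ac libraries, at the 78.3rd to 88.0th percentile of length, while its height was at the 11.5th to 21.8th percentile. Of 4759 and 4436 H3K9cr peaks at least as long, 2 and 1 were as low, the Sox21 peak included. Of 5675 and 3313 such H3K9ac peaks, 3 and 1 were. The median height of peaks at least as long was at the 80.2nd to 82.8th percentile, so the Sox21 peak was among the 3 lowest of its length or longer in every list.

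The Sox1 peak over the gene was low for its length too, with 0.869% to 2.73% of peaks at least as long being as low. For Sox14 this share was 0.848% to 5.01%, and for Sox2 it was 31.8% to 50%, out of 10 to 22 peaks. The Sox21 site overlapped the start-site window of the noncoding gene Gm4675 as well. A second site 7.11 kb downstream of Sox21 (chr14:118225580-118226126) was listed in all libraries at percentiles from 5.97 to 13.5, with lengths of 306 to 498 bp. Another (chr14:118226600-118227326) was listed in both H3K9cr libraries, over 313 and 712 bp, and in neither H3K9ac library, at percentiles of 7.86 and 4.37. Of all 31127 sites, 2.57% were listed in this way and 0.28% in both H3K9ac libraries and neither H3K9cr library.

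**Figure D3:**
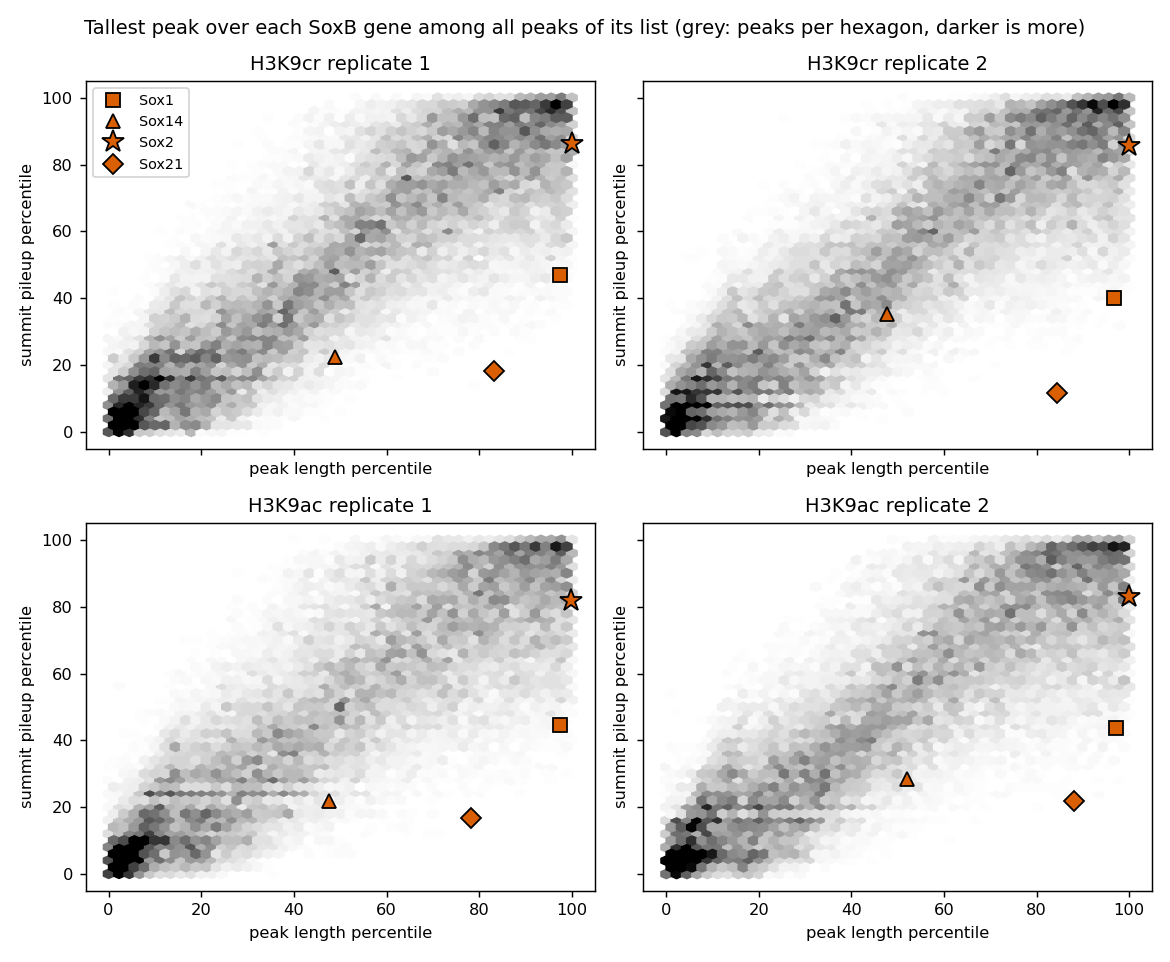
The tallest peak over each SoxB gene (orange symbols) among all peaks of its list (grey hexagons, darker where more peaks fall), with the length percentile on the horizontal axis and the summit pileup percentile on the vertical axis, a panel per library. The Sox2 symbol sits at the right edge, and the Sox21 symbol lies below nearly all peaks of its length in each panel.

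The marks were compared at each gene with limma fitted across all genes. For covered length within 20 kb, as log2(bp + 500) centred on the library median, 0 of 16108 genes (0.0%) passed an adjusted p of 0.05, and 926 genes (5.75%) had an unadjusted p under 0.05. The difference, H3K9cr minus H3K9ac, was 0.12 for Sox2 (95% interval -0.03 to 0.28, adjusted p = 0.841 in limma) and -0.14 for Sox1 (-0.29 to 0.01, 0.841). It was -0.27 for Sox14 (-0.49 to -0.04, adjusted p = 0.784 in limma, unadjusted p = 0.0286) and 0.18 for Sox21 (-0.10 to 0.45, 0.841). None of the 4 genes was called, and the intervals reach from -0.49, at Sox14, to 0.45, at Sox21. The Sox21 value depended on single libraries, being 0.0561 without H3K9ac replicate 1, 0.0793 without H3K9cr replicate 2, 0.272 without H3K9cr replicate 1 and 0.295 without H3K9ac replicate 2. The Sox14 value was -0.159 without H3K9cr replicate 2.

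Without that centring, Sox2 was covered over 22358.5 ± 411 bp for H3K9cr and 19252.5 ± 1643 bp for H3K9ac (SD, n = 2 each), and the libraries of the marks did not overlap. The same was true, with H3K9cr higher, of 43.8% of genes. In a limma fit of bp without the log, centred in the same way, the Sox2 difference was 2844 bp (95% interval 1137 to 4550), at the 99.8th percentile of all genes' differences, with an adjusted p of 0.357 and an unadjusted p of 0.00733. On the log2 scale it stood at the 88.0th percentile. In the same fit of bp, Sox14 and Sox1 lay near the other extreme. The Sox14 difference was -776 bp (-1440 to -112), at the 0.248th percentile, and that of Sox1 -595 bp (-1205 to 14.6), at the 0.795th. Neither passed (adjusted p in limma 0.553 and 0.651). For Sox21 it was 383 bp (-306 to 1073), at the 83.6th percentile. Libraries of the marks did not overlap, with H3K9ac higher, at 2.28% of genes. Covered lengths of Sox1, Sox14 and Sox21 overlapped between the marks. Over the 150 kb window, Sox2 peaks covered 24898 ± 269 bp in the H3K9cr libraries and 21482 ± 2249 bp in the H3K9ac libraries (exact two-sided permutation p = 0.3333, n = 2 each), from 10 and 11 peaks for H3K9cr and 12 and 11 for H3K9ac. That difference was 1826 bp without H3K9ac replicate 1 and 5006 bp without H3K9ac replicate 2, against 3416 bp with all libraries. The 150 kb values were not centred on the library, and both H3K9cr lists covered more of the genome.

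The height of the tallest peak within 20 kb was compared as the normal score of its percentile. Of 16255 genes with such a peak in all libraries, 3 (0.0185%) passed, all higher for H3K9cr. They were Gpr132, Ryr1 and Glod5, named here because they were so few and chosen after their values were seen. Differences were 0.15 for Sox2 (95% interval -0.01 to 0.31, adjusted p = 0.537 in limma), 0.09 for Sox1 (-0.09 to 0.27, 0.728), 0.10 for Sox14 (-0.17 to 0.37, 0.812) and -0.18 for Sox21 (-0.42 to 0.05, 0.608). Sox2 was the only member whose percentiles did not overlap between marks, with both H3K9cr libraries higher, as at 31.9% of genes. The reverse, both H3K9ac libraries higher, held at 9.83% of genes and at none of the members. The median difference over all genes was 0.0438. With equal numbers of peaks in every list the median was -0.00461, and the Sox2 difference was 0.111. Without single libraries the value ran from 0.0272 (without H3K9ac replicate 1) to 0.160 (without H3K9ac replicate 2) for Sox1, and from -0.331 (without H3K9cr replicate 1) to -0.0346 (without H3K9cr replicate 2) for Sox21. For Sox14 it ran from -0.0860 (without H3K9cr replicate 2) to 0.292 (without H3K9cr replicate 1), a change of sign. The count of calls was not stable, being 0 with the authors' fold enrichment in place of the pileup, 98 with the replicate number in the fit and 60 to 498 without single libraries, and none of the 4 SoxB genes was called in any of these fits.

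**Figure D4:**
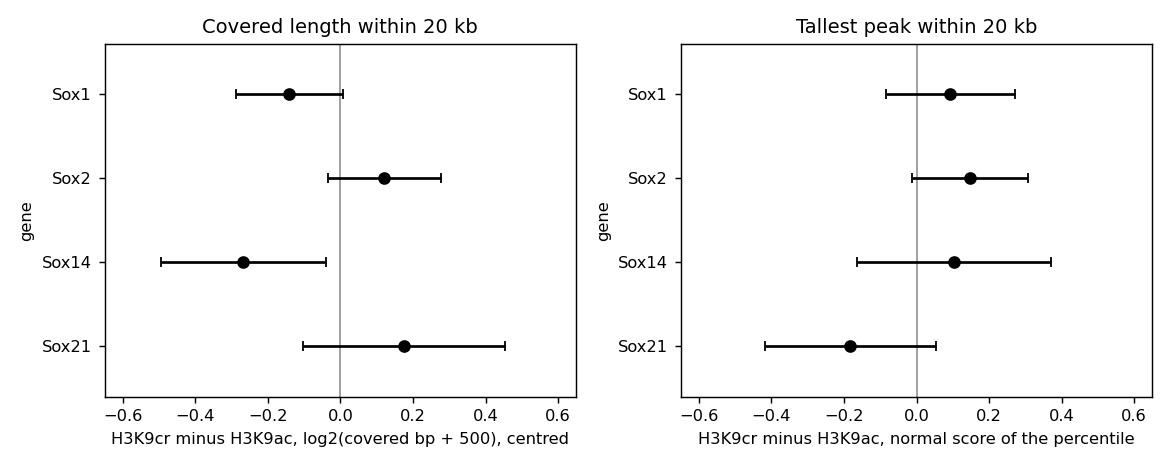
Difference between the marks, H3K9cr minus H3K9ac, at each SoxB gene for covered length within 20 kb (left, log2 scale) and for the height of the tallest peak (right, normal score). Points are limma estimates from 2 libraries a mark and bars are 95% intervals. Only the interval of Sox14 for covered length excludes 0, and it did not pass after adjustment over all genes.

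The members were then set beside 15 other Sox genes. A peak lay within 2.5 kb of the gene in all 4 libraries at 4 of 4 SoxB genes and 14 of 15 other Sox genes, against 67.9% of all protein-coding genes. The exception was Sox7, an endoderm and endothelial factor, with a peak in 2 libraries at percentiles of at most 0.904. The highest of the other Sox genes was Sox15 (99.5th to 99.7th percentile), which has 5 protein-coding neighbours within 20 kb, among them Eif4a1. It was followed by Sox4 (91.1 to 95.2) and Sox11 (87.9 to 92.2), SoxC factors of progenitors and immature neurons. The lowest besides Sox7 were the endoderm factor Sox17 (31.8 to 36.5) and Sox30 (38.7 to 44.5), a factor of male germ cells. Sox14 (22.0 to 35.2) and Sox21 (11.5 to 21.8) thus stood below 14 of the 15 in mean percentile, and Sox3, the remaining SoxB1 gene, stood at 52.1 to 59.4, over much the same range as Sox1.

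**Figure D5:**
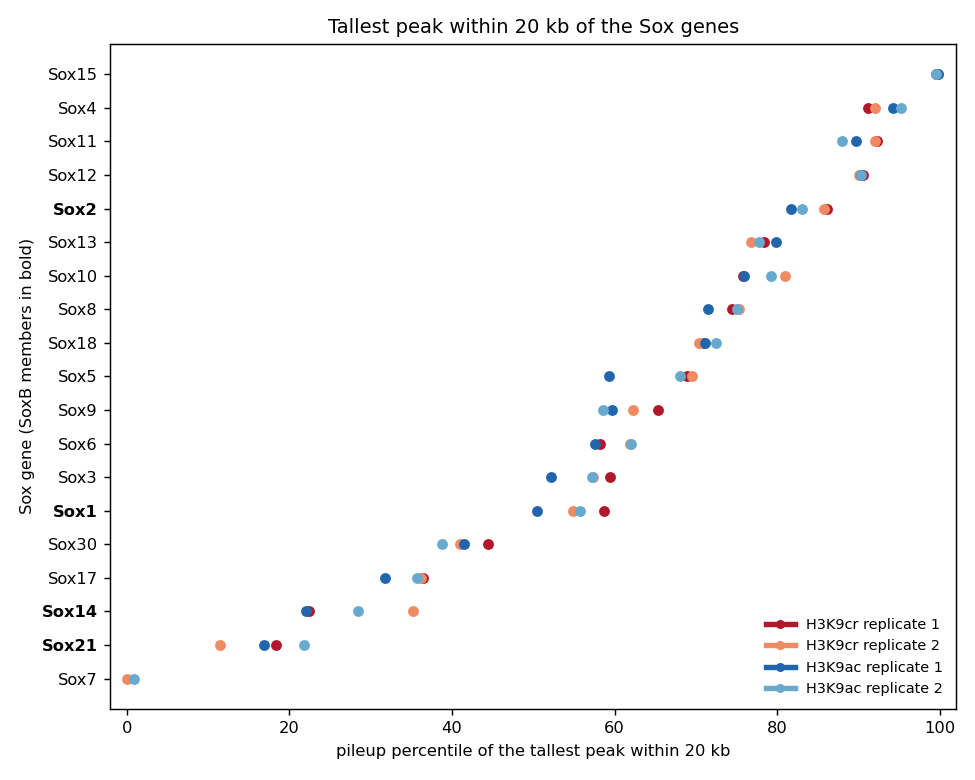
Pileup percentile of the tallest peak within 20 kb of each Sox gene (horizontal axis), a dot per library, with genes ordered by their mean and SoxB members in bold. Sox2 lies among the upper genes and Sox14 and Sox21 lie at the bottom, above Sox7 only.

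Over the SoxB genes the median percentile of the tallest peak was 40.6, 45.1, 36.2 and 42.1 for H3K9cr replicates 1 and 2 and then H3K9ac replicates 1 and 2. It was 72.7, 70.3, 71.3 and 72.4 over the other Sox genes and 81.9, 82.0, 80.5 and 81.4 over all genes with a peak there. Sox7 had no such peak in H3K9cr replicate 1 and H3K9ac replicate 1 and is left out of the medians of those libraries. Sox3, a SoxB1 gene, is counted with the other Sox genes. Windows of other genes can be longer or hold neighbouring genes. The median covered length of the SoxB genes, 6437.5, 6288, 6344.5 and 6989.5 bp, was above that of all genes, 2668, 2738, 2404 and 2622 bp. Over the other Sox genes it was 6791, 6820, 5596 and 6746 bp. That median fell on Sox11 in both H3K9cr libraries and on Sox15 in both H3K9ac libraries. A difference between these lists by mark was not tested. A median of 4 genes is the mean of the 2 in the middle. Among 12 partners, regulators and targets of SoxB factors, all had a peak within 2.5 kb in every library. The highest were the homeobox factor gene Otx2 (87.7 to 90.0), the neural filament gene Nes (85.6 to 91.7) and Sall4 (86.2 to 89.0), a pluripotency factor. The lowest were Fgf4 (34.6 to 43.2), a growth factor gene activated by Sox2 with Oct4, the neural factor Pou3f2 (41.8 to 45.9) and Pax6 (52.1 to 56.1), and Pou5f1, which encodes Oct4, stood at 76.9 to 82.5, below Sox2 in mean. Other protein-coding genes lay within 20 kb of Nes, Sall4, Fgf4, Pax6 and Pou5f1, but not of Otx2 or Pou3f2. The tallest peak in such a window was not assigned to one of its genes.

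Some genes had nearly the same pair of values, the height of the tallest peak and the covered length within 20 kb, each as a percentile and averaged as absolute differences over the 4 libraries. Nearest to Sox2 were Dcst2 and H2ac12, 0.787 and 0.818 points away. Nearest to Sox1 were Tns1 (0.845) and Gata2 (1.22). The nearest to Sox14 were Fxyd5 (3.604) and Fxyd1 (4.10), and to Sox21 Ripor2 (6.57) and Foxf2 (7.02). The tallest peaks of Fxyd5 and Fxyd1 have the same range of percentiles, and their lowest covered length is the same (3395 bp). Whether these genes share their peaks was not tested. The covered length of Sox2 lies at the compressed upper end of the percentile scale, so these distances are not comparable between members.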

How the data were processed

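Native chromatin immunoprecipitation of P19 cells gave peak lists for H3K9cr and H3K9ac, 2 libraries a mark, grouped by the labels. Bowtie2 2.4.1, MACS2 2.2.7.1 and the build GRCm38 are named in the submitters' processing notes, but their options are not stated there. The authors deposited 1 peak list per library, with positions in bp counted from 1. Per the file headers, each peak has a pileup (a coverage signal at the summit), a -log10 p-value and -log10 q-value, and a fold enrichment, a ratio to local background. Pileup was compared by rank within a list.

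Gene records, start-site windows and strands came from RefSeq (GRCm38.p6), and all 4 members matched. A site joins peaks of different libraries that overlap by at least 1 bp. Covered length (genes with a mean of at least 500 bp, pseudocount 500 bp) and the normal score of the tallest percentile were fitted by mark with limma 3.58.1 in R 4.3.3, with Benjamini-Hochberg adjustment over all genes. Single values used an exact permutation test. Other steps used scipy 1.17.1, pandas 2.3.3 and numpy 2.4.6 under Python 3.11.15. The fit of covered length was tested on simulated data with planted log2 changes larger than any log2 difference at the members. That test therefore does not show whether differences as small as theirs would be found. The members and lists were chosen with earlier results of these data known. Named genes were the members, the 3 highest and 3 lowest of each list, genes at Sox2 sites and the 2 genes nearest to each member. Sox3, Pou5f1, Eif4a1, the noncoding genes at Sox1 and Sox21 sites and the 3 genes called for the tallest peak fall outside this rule. They were named after the values were seen.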

Additional observations from a re-analysis of the deposited data

How the results depend on the processing

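None of the 4 SoxB genes passed the threshold in limma under any of the alternatives run for covered length or for the tallest peak, 88 values in all with adjusted p of at least 0.272, and 85 of these kept the direction of the value reported. The others were Sox21 for covered length with equal numbers of peaks in every list (-0.0568), and Sox14 for the tallest peak with equal numbers (-0.0416) and without H3K9cr replicate 2 (-0.0860, against 0.292 without H3K9cr replicate 1, the range when single libraries were left out). The count of genes called for covered length stayed at 0 in all 13 alternatives. The count for the tallest peak was 3 and moved to 98 with the replicate block, 0 with fold enrichment, 5 with equal numbers of peaks, 5 with -log10 q of at least 5, 12 within 2.5 kb, and 60 to 498 when single libraries were left out, the highest without H3K9ac replicate 2. Such fits assume that the lone library of a mark varies like the other mark's. The cause was not tested. The replicate numbers are not shown to pair the libraries in covered length or pileup. Deviations of same-numbered libraries correlated at 0.12 across genes for covered length and 0.06 for the tallest peak, with 2 pairs. The authors' fold enrichment was not tested in this way. At some distal Sox2 sites, among them those near 42 and 146 kb, it split by replicate number, and not always in the same direction. Within 150 kb of Sox2, 6 or 7 sites had a peak in every library under the alternatives that kept all 4 libraries. The count was 7 to 9 when a single library was left out and fewer libraries had to hold a peak. H3K9cr covered more than H3K9ac in all 9 alternatives. These lengths were not centred on the library, and both H3K9cr lists covered more of the genome. Read depth is unknown and 2 libraries a mark limit every comparison.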
